A study of Mus musculus with 4 samples.

Results

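The genes described here are 10 mouse genes whose human counterparts are mutated in primary microcephaly, a condition in which the brain is small from birth, and whose products act at the centrosome, the mitotic spindle, the kinetochore or the cytokinetic midbody. They are Aspm, Wdr62, Cdk5rap2, Cenpj, Mcph1, Stil, Cep152, Cep135, Knl1 and Cit. They are picked out by symbol, by a rule that uses no measured value but was set with earlier results of these data known, and all 10 were found among the 13289 genes of the deposited count table. RNA-seq of polyadenylated RNA was made from the cerebral cortex of mouse embryos at embryonic day 15 in 2 groups of 2 libraries each. The control libraries are titled WT, read here as wild type, and the others come from Lhx2 cKO cortex, read as conditional knockout of Lhx2, a LIM-homeodomain transcription factor of cortical progenitors. The labels name no treatment and give neither the driver line, the allele, the sex, the litter nor the number of embryos per library, so it is not known which cells lost Lhx2, and p-values measure the spread between these libraries, which may be technical.

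A dividing cortical progenitor duplicates its centrioles once per cycle, surrounds them with pericentriolar material that nucleates microtubules, builds a bipolar spindle, attaches its chromosomes at kinetochores and then splits in cytokinesis. Radial glia, the stem cells that line the ventricle, depend on each of these steps to keep dividing, and loss of genes of this set is known to deplete them. Transcripts of several of these genes accumulate in the G2 and M phases of the cycle. In bulk tissue fewer cells of a type and less RNA per cell cannot be told apart.

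Total counts ranged from 22294237 to 24609627 per library over the genes analysed, and the members had between 49 and 1727 counts per library. Lhx2 itself was at 316 and 287 CPM (counts scaled to library size) in control and at 239 and 247 CPM in Lhx2 cKO, a fall of 0.31 on the log2 scale (SE 0.098, adjusted p = 0.0191 in edgeR's quasi-likelihood test). Without control 1 the log2 fold change was -0.25 with an adjusted p of 0.176, and without Lhx2 cKO 1 or 2 the adjusted p was 0.102 and 0.0538. Reads were counted over the whole gene, and which exons were deleted is not given, so this value is a limited check of the labels. The dorsal telencephalon markers Emx1, Emx2, Tbr1 and Neurod2 were detected in every library of this cortical tissue.

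All 10 members had a lower mean in Lhx2 cKO than in control, where 49.5% of all genes tested had a log2 fold change below 0. By the test used here 5 of the members fell: Knl1, Stil, Aspm, Wdr62 and Cit. A gene is said to be called, or to have risen or fallen, when its adjusted p was under 0.05 in edgeR's quasi-likelihood test, with Benjamini-Hochberg adjustment over the 13288 genes tested. Across all genes tested 20.8% were called, 9.17% lower and 11.6% higher, while 0 of the 10 members were called higher. The unadjusted p was under 0.05 for 6 of the 10, the 5 called and Cep152, all lower. The share of all genes tested under that value was not computed, so no excess is read from this count. In each of the 10 both Lhx2 cKO libraries lay below both control libraries, a separation seen in 29.1% of all genes tested. The median log2 fold change of the members was -0.49, against 0.003 over all genes tested. The summed level of the members was 204 ± 4.37 CPM over the control libraries and 161 ± 6.02 CPM over those of Lhx2 cKO (SD, n = 2). In the authors' deposited table the same 5 of 10 members have an adjusted p under 0.05 with a negative fold change, where 9.38% of all genes tested do.

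**Figure D1:**
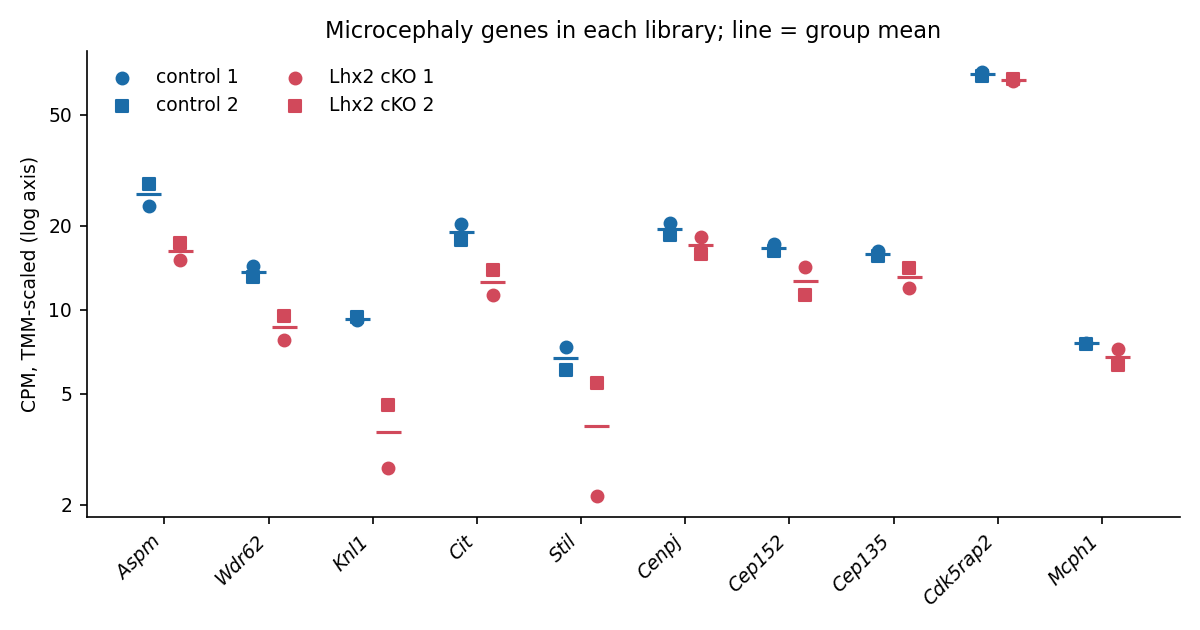
CPM of each member (log axis) in the 2 control libraries (blue) and the 2 Lhx2 cKO libraries (red), with circles for replicate 1, squares for replicate 2 and lines at group means. The red points lie below the blue points for all 10 genes, with the widest gap for Knl1 (9.16 and 9.44 CPM against 2.72 and 4.57 CPM) and a narrow one for Cdk5rap2.

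Aspm encodes a microtubule-associated protein of the spindle poles and is the gene most often mutated in human primary microcephaly. It was at 23.5 and 28.3 CPM in control and at 15.1 and 17.3 CPM in Lhx2 cKO. The means were 25.9 ± 3.41 and 16.2 ± 1.59 CPM (SD, n = 2), so that 62.6% of the control level was measured in Lhx2 cKO. The log2 fold change was -0.68 (SE 0.135, adjusted p = 0.00021 in edgeR), and the groups were further apart than the libraries within either of them.

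Wdr62 encodes a spindle pole scaffold that works with Aspm. It was at 14.4 and 13.1 CPM in control and at 7.82 and 9.49 CPM in Lhx2 cKO, or 63.1% of control by the means. Its log2 fold change of -0.66 (SE 0.168, adjusted p = 0.0033 in edgeR) was close to that of Aspm, and the call was lost without Lhx2 cKO 1, at -0.53 with an adjusted p of 0.0548. In the GENCODE M21 annotation an exon of Wdr62 shares 264 bases with Thap8 on the other strand, and whether the counting used strand is not given in the sources used here, so some of its reads may belong to Thap8.

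Knl1 encodes the kinetochore scaffold that binds microtubules and recruits the spindle checkpoint kinases. Its levels were 9.16 and 9.44 CPM in control and 2.72 and 4.57 CPM in Lhx2 cKO. The control libraries were nearly equal, while the Lhx2 cKO libraries differed by more than their counting error, with exact Poisson 95% intervals of 2.09 to 3.49 and 3.74 to 5.53 CPM, which cover counting error only. The mean in Lhx2 cKO was 39.2% of control, and the log2 fold change of -1.35 (SE 0.227, adjusted p = 1.63e-05 in edgeR) was the lowest estimate among the 10 members.

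Cit encodes citron kinase, which holds the midbody together at the end of cytokinesis. It was at 20.3 and 17.8 CPM in control and at 11.3 and 13.9 CPM in Lhx2 cKO. The mean fell to 66.3% of control, or by 0.59 on the log2 scale (SE 0.15, adjusted p = 0.00329 in edgeR). The call was lost without control 1 (-0.50, adjusted p = 0.0538) and without Lhx2 cKO 1 (-0.45, adjusted p = 0.0636). Cit also gives rise to a shorter neuronal form without the kinase domain, and the gene-level counts do not separate the forms.

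Stil encodes a factor that starts the growth of a new centriole together with the kinase Plk4 and the cartwheel protein Sass6. The control libraries held 7.38 and 6.08 CPM, and the Lhx2 cKO libraries 2.15 and 5.48 CPM. The groups did not overlap, but Lhx2 cKO 2 lay close to control 2, and its Poisson interval of 4.57 to 6.53 CPM overlapped that of control 2, 5.15 to 7.13 CPM. The low value rested on Lhx2 cKO 1, with 49 counts. The log2 fold change was -0.82 (SE 0.273, adjusted p = 0.0276 in edgeR). Without Lhx2 cKO 1 it was -0.29 with an adjusted p of 0.507, without Lhx2 cKO 2 it was -1.65 with 3.22e-05, without control 1 it was -0.68 with 0.134, and DESeq2 gave an adjusted p of 0.105.

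The other centriole assembly genes did not pass the test. Cep152, which recruits Plk4 to the parent centriole, was at 17.2 and 16.2 CPM in control and at 14.2 and 11.3 CPM in Lhx2 cKO, with an estimated change of -0.39 on the log2 scale (SE 0.153, adjusted p = 0.0624 in edgeR). Its unadjusted p was 0.0141, and without Lhx2 cKO 1 it was called, with a log2 fold change of -0.56 and an adjusted p of 0.0236. Cep135, a protein of the centriole core, was at 16.2 and 15.6 CPM in control and at 12 and 14.1 CPM in Lhx2 cKO, with a log2 fold change of -0.29 and a 95% interval of -0.59 to 0.02. Cenpj, which sets the length of centriolar microtubules, was at 20.5 and 18.6 CPM in control and at 18.2 and 15.9 CPM in Lhx2 cKO. Its log2 fold change of -0.19 had a 95% interval of -0.48 to 0.09. The intervals of Cep135 and Cenpj include 0, and neither shows that the level was the same in both groups.

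Cdk5rap2 encodes a component of the pericentriolar material that activates the gamma-tubulin ring complex. Its levels were 71.2 and 68.7 CPM in control and 66 and 66.9 CPM in Lhx2 cKO, or 94.9% of control by the means. The log2 fold change was -0.08 with a 95% interval of -0.27 to 0.12, the narrowest interval of the members. Cdk5rap2 had the highest CPM of the members, and the other 9 together went from 134 to 94.6 CPM, or 70.4% of control. An exon of Cdk5rap2 shares 365 bases with the pseudogene Ywhaq-ps3 on the same strand in GENCODE M21, so its count may hold reads of that copy or of its parent gene.

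Mcph1 encodes microcephalin, which restrains chromosome condensation before mitosis and acts in the DNA damage response. It was at 7.59 and 7.56 CPM in control and at 7.21 and 6.36 CPM in Lhx2 cKO. The log2 fold change of -0.16 had a 95% interval of -0.56 to 0.24, so at this depth a change of the size measured for Cep152 was not excluded. Mcph1 overlaps Gm16725 on the other strand by 190 bases of exon.

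**Figure D2:**
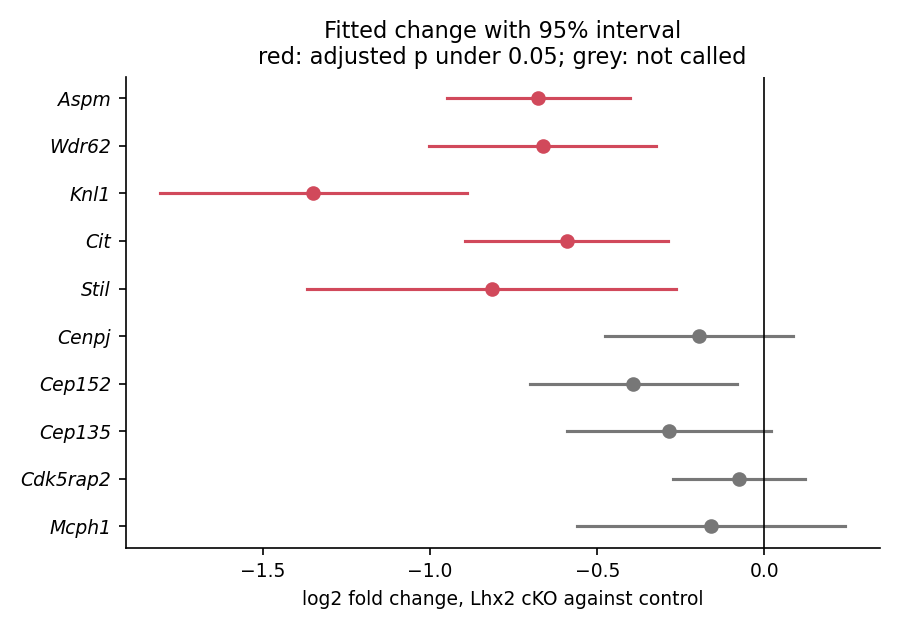
Fitted log2 fold change, Lhx2 cKO relative to control, for each member (points) with its 95% interval (lines), red where the adjusted p was under 0.05 and grey otherwise. All points lie left of 0, from -1.35 for Knl1 to -0.08 for Cdk5rap2, and the intervals of Cenpj, Cep135, Cdk5rap2 and Mcph1 cross 0.

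By role, the spindle pole, kinetochore and midbody genes (Aspm, Wdr62, Knl1 and Cit) were all called, while of the centriole assembly genes (Stil, Cep152, Cep135 and Cenpj) only Stil was. This grouping was made with the results known, and the difference between the roles was not tested. The interval of Knl1 (-1.81 to -0.89) did not overlap those of Cep152 (-0.70 to -0.08), Cep135, Cenpj, Cdk5rap2 and Mcph1. It did overlap that of Stil (-1.37 to -0.26). The intervals of Aspm (-0.95 to -0.40), Wdr62 and Cit (-0.89 to -0.29) each overlapped those of Stil, Cep152, Cep135 and Cenpj. The intervals of Aspm, Wdr62 and Cit did not overlap that of Cdk5rap2 (-0.27 to 0.12). Overlapping intervals do not show that genes changed alike. Whether Aspm, Wdr62 or Cit differed from the centriole assembly genes is thus not settled by them. The libraries of a group also differed among themselves: 7 of the 10 members were lower in Lhx2 cKO 1 than in Lhx2 cKO 2, and 8 of the 10 were higher in control 1 than in control 2. When control 1 was dropped, the median log2 fold change of the members was -0.431, against -0.002 over all genes tested. Dropping Lhx2 cKO 1 gave medians of -0.374 and -0.001. Across the 4 fits that left out 1 library, Aspm ranged from -0.82 to -0.53 and Knl1 from -1.77 to -1.02. Stil had a wider range, from -1.65 to -0.29. Each of these fits leaves 1 library alone in its group, so counts of calls are not compared here between members and all genes.

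Levels were compared between genes per length, as reads per kilobase of the deposited gene length, scaled to library size (RPKM). In control Cdk5rap2 was highest at 5.38 ± 0.135 RPKM, followed by Cenpj at 4.01 ± 0.28 and Cep152 at 2.89 ± 0.127 RPKM (SD, n = 2), and the control libraries of these neighbours did not overlap. Wdr62 (2.39 RPKM), Aspm (2.23 RPKM) and Cep135 (2.21 RPKM) came next. The control libraries of Aspm overlapped those of both others, while those of Wdr62 lay just above those of Cep135. Stil and Cit, both at a mean of 1.16 RPKM, and Knl1 at 1.09 RPKM overlapped as well, and Mcph1 was lowest at 0.97 RPKM. In Lhx2 cKO the first 3 places were the same, while Knl1 was lowest at 0.427 ± 0.153 RPKM and Mcph1, at 0.869 ± 0.0772 RPKM, stood above Cit, Stil and Knl1 by the means. The libraries of Mcph1 and Cit overlapped there, as did those of Mcph1 and Stil.

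**Figure D3:**
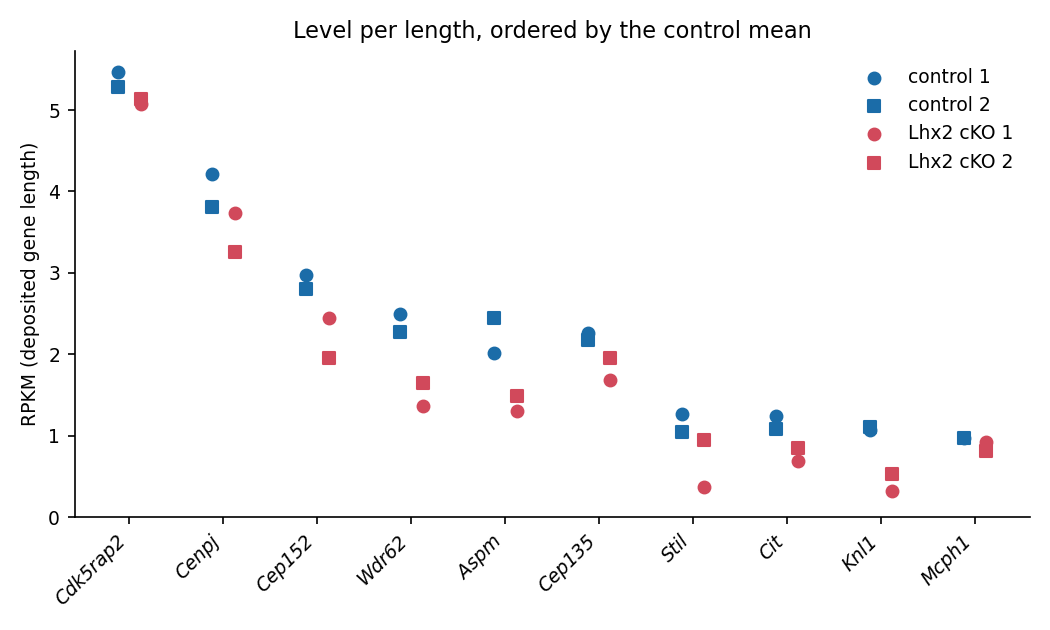
RPKM of each member in control (blue) and Lhx2 cKO (red) libraries, ordered by the control mean. Levels run from 5.38 RPKM for Cdk5rap2 to 0.97 RPKM for Mcph1 in control, and the order of the lower genes differs in Lhx2 cKO, where Knl1 is lowest.

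Stretches at the start of 4 called members are shown because genes of the late cell cycle are known to carry CCAAT boxes, bound by NF-Y, and a cell cycle homology region, bound by the DREAM and MuvB complexes, near their start. The sequences are RefSeq promoter windows of build GRCm38.p6, matched by symbol for 9 of the 10 members, all but Mcph1. The counts are on mm39 per the submitters' processing notes, so these positions are not those of the counted reads. Each of the first 3 runs from 120 bases before the annotated start to 20 bases after it, and for Knl1 the 25 bases around its match are given. Capitals mark CCAAT (or ATTGG, its reverse), TTTGAA and TTTCCCGC.
Aspm, chr1:139454653-139454792, plus strand: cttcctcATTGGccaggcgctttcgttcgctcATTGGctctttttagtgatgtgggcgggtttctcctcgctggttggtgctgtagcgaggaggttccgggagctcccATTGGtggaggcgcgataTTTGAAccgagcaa
Wdr62, chr7:30280402-30280541, minus strand: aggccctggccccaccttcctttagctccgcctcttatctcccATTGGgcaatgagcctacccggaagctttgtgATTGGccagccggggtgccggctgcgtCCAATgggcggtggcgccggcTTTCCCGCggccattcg
Stil, chr4:114999998-115000137, plus strand: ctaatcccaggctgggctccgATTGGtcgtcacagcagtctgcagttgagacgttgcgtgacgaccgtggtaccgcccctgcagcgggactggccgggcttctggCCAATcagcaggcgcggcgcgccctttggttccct
Knl1, chr2:119047140-119047164, plus strand: ggcggttagaTTTGAAtacttcagg

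Aspm held 3 CCAAT boxes and, from base 7 to base 12 after the start, the letters TTTGAA. Wdr62 held 3 CCAAT boxes and an E2F-type TTTCCCGC. In the windows of 250 bases before to 50 bases after the start, searched on both strands, a CCAAT box was found in 5 of the 9 members (Aspm, Wdr62, Stil, Cep152 and Cep135) and in 37.4% of all 32851 windows. TTTGAA or TTCGAA was found in 4 of the 9 (Aspm, Knl1, Cep152 and Cdk5rap2) and in 19.2% of all windows. One of the E2F forms TTTCCCGC, TTTCGCGC, TTTGCCGC and TTTGGCGC was found in 1 of the 9 and in 2.26% of all windows. The letters TAATTA, a core bound by LIM-homeodomain proteins, were found in 0 of the 9 and in 5.29% of all windows. Motifs were found in called members (Aspm) and in members not called (Cep152), and Cit and Cenpj held none of these letters. For 7 of the 9 members the window does not sit at the outermost start of the gene in RefSeq, so other start sites were not searched.

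Markers of dividing cells and of intermediate progenitors, the transit-amplifying daughters of radial glia, were lower in the same libraries. Of 15 genes of cycling cells 11 fell and 0 rose, with a median log2 fold change of -0.63, and their summed level was 532 and 584 CPM in control against 378 and 366 CPM in Lhx2 cKO. Among them Mki67 was at -0.87, Top2a at -0.86 and Cdk1 at -0.96 on the log2 scale (adjusted p between 5.85e-09 and 8.18e-07 in edgeR). Of 10 intermediate progenitor genes 8 fell, including Eomes (-1.66), Mfap4 (-0.85) and Neurog1 (-2.38), and the sum went from 1250 CPM in both control libraries to 804 and 830 CPM. Of 11 radial glia genes 4 fell, including Pax6 (-1.24), Sox9 (-0.73) and Nes (-0.40), while Slc1a3 (0.27) rose. Their median log2 fold change was -0.28, and the sum was 826 and 891 CPM in control and 818 and 792 CPM in Lhx2 cKO. None of the markers in these 3 lists was at 0 in any library. Without Lhx2 cKO 2 only 2 of the radial glia genes were called lower and Nes was not among them (adjusted p = 0.0503), and without control 1 Nes was not called either (0.192). The call of Slc1a3 was lost with library totals, in DESeq2 and without control 1, Lhx2 cKO 1 or Lhx2 cKO 2, with adjusted p between 0.0603 and 0.532. The part of these cells in the lower level of the members was not tested.

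Set against the summed cycling-cell genes within each library, the members stood differently, and the direction depended on the reference list. Summed over the 10, they amounted to 39% and 34.4% of the cycling-cell sum in control and to 41.5% and 45.1% in Lhx2 cKO. Cdk5rap2 made up 71.2 and 68.7 CPM of the members' 207 and 201 CPM in control. In Lhx2 cKO it made up 66 and 66.9 CPM of 157 and 165 CPM. Without Cdk5rap2 the summed members were at 70.4% of control, beside 66.6% for the cycling-cell sum. Aspm was 4.41% and 4.84% of the cycling-cell sum in control and 3.99% and 4.73% in Lhx2 cKO. The groups thus overlapped for Aspm, as they did for Wdr62, Stil, Cep152 and Cit. Cdk5rap2 went from 13.4% and 11.8% to 17.5% and 18.3%, and Cenpj, Cep135 and Mcph1 were likewise higher in both Lhx2 cKO libraries. Knl1 was the exception in the other direction, with 1.72% and 1.62% in the control libraries against 0.721% and 1.25% in the Lhx2 cKO libraries. Against the summed radial glia genes the members went the other way, with 25.1% and 22.6% of that sum in control against 19.2% and 20.9% in Lhx2 cKO, and Aspm, Wdr62, Cep152, Knl1 and Cit were each lower without overlap. Against the summed intermediate progenitor genes they were at 16.6% and 16.1% in the control libraries and at 19.5% and 19.9% in those of Lhx2 cKO. These ratios are a description and were not tested, and the reference sums weigh abundant genes most. In the radial glia list Vim was at 195 and 223 CPM in control and at 244 and 236 CPM in Lhx2 cKO. Pax6 went from 123 and 134 CPM to 57.5 and 51.7 CPM. The most abundant cycling-cell gene was Mki67, at 129 and 155 CPM in control.

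**Figure D4:**
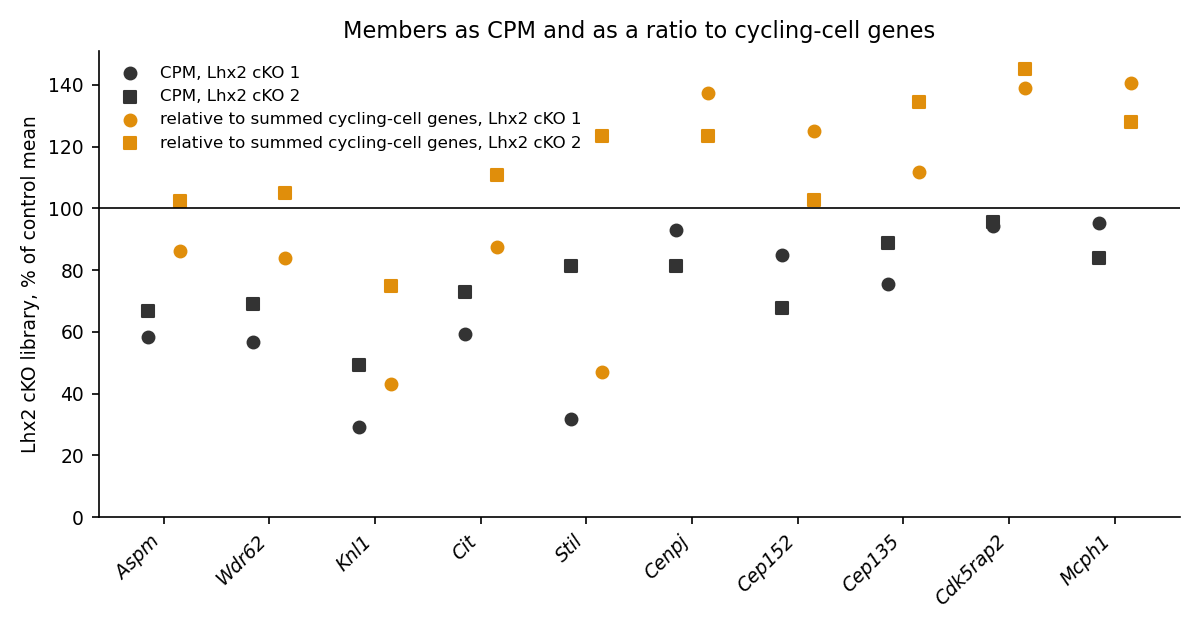
Level of each member in each Lhx2 cKO library as a percentage of the control mean, as CPM (black) and as a ratio to the summed CPM of the 15 cycling-cell genes (orange), with circles for Lhx2 cKO 1 and squares for Lhx2 cKO 2. All black points lie under 100%, whereas both orange points lie under 100% only for Knl1.

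Other genes of the same machinery were read from the same fit. Of 19 further genes of human primary microcephaly, 8 fell, 1 rose and 10 were not called. The falls included Cdk6 (-1.40), a kinase of the G1 phase that also sits at the centrosome, and Ncapd2 (-0.53), a condensin subunit, while Mfsd2a, a lipid transporter of brain endothelium, rose by 0.53 on the log2 scale (adjusted p between 1.61e-13 and 2.02e-04 in edgeR). Markers of vascular and meningeal cells went both ways beside it, with 4 of 8 called higher and 2 lower. The 2 were Rgs5 (-0.34) and Col1a1, which was at 25.7 and 23 CPM in control and at 4.44 and 1.65 CPM in Lhx2 cKO. The sums of the 8 were 247 and 270 CPM in control against 280 and 309 CPM in Lhx2 cKO. The part of these cells in the value of Mfsd2a was not tested. In DESeq2, and at an adjusted p under 0.01 in edgeR, 6 of the 19 microcephaly genes were called lower. Fewer than 8 were also called lower without control 1, Lhx2 cKO 1 or Lhx2 cKO 2.

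Among 29 genes of centriole assembly and the pericentriolar material 6 fell and 0 rose, and the median log2 fold change was -0.17. Pcnt (-0.42), Akap9 (-0.38) and Cep250 (-0.34), large scaffolds of the centrosome and Golgi, had adjusted p between 0.00241 and 0.00921 in edgeR. Without Lhx2 cKO 2 there were 3 falls, and Pcnt was not called (adjusted p = 0.0621), and without control 1 Cep250 was not (0.176). Of 24 spindle genes 9 fell and 0 rose (median -0.34), among them Nusap1 (-0.98), Kif11 (-0.95) and Tpx2 (-0.74), which bundle, slide and nucleate spindle microtubules, with 5 falls without Lhx2 cKO 2. Of 15 outer kinetochore and checkpoint genes, the partners of Knl1, 9 fell and 0 rose (median -0.45), including Spc25 (-0.90), Spc24 (-0.77) and Mad2l1 (-0.71). Only 2 of them were called without control 2, where Spc25 had an adjusted p of 0.0521. Of 13 cytokinesis genes, the setting of Cit, 10 fell and 0 rose (median -0.58), including Plk1 (-0.69), Racgap1 (-0.63) and Incenp (-0.58), with 6 falls without control 2, without Lhx2 cKO 2 and in DESeq2. These medians stand beside -0.49 for the members and 0.003 for all genes tested. Of the other genes named, Akap9, Cdk6, Cdkn1a, Cep250, Eomes, Mfap4, Ncapd2, Nusap1, Pcnt, Plk1, Top2a, Srebf1 and Trp53bp1 share exon bases with another gene in GENCODE M21, so their counts are uncertain to that extent.

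**Figure D5:**
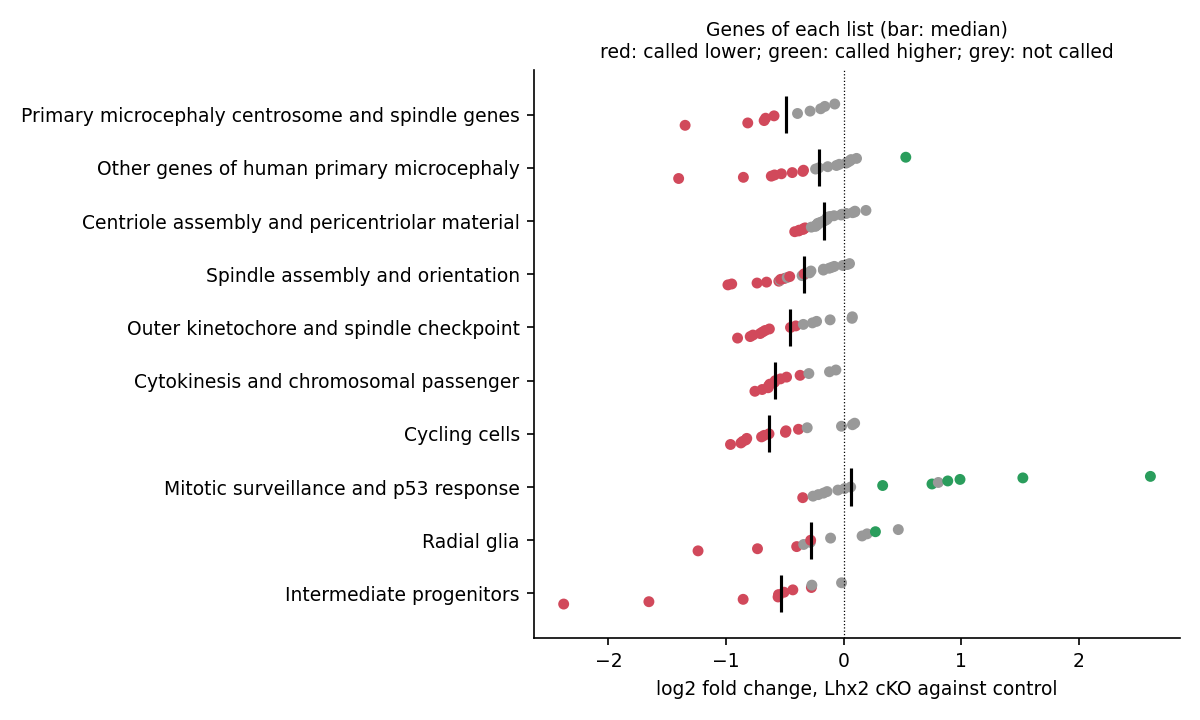
Log2 fold change of every tested gene in the members and 9 other lists, red where called lower, green where called higher, grey where not called, with a bar at each median. Medians run from -0.63 for cycling cells to 0.06 for the mitotic surveillance and p53 list, with the members at -0.49.

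Loss of centrioles or a long mitosis is known to stabilise p53 through Usp28 and Trp53bp1, the mitotic surveillance pathway. Of 15 genes of this pathway and of the p53 response, 6 rose, 1 fell and 8 were not called, with a median log2 fold change of 0.06. Cdkn1a, an inhibitor of cyclin-dependent kinases, was at 4 and 3.28 CPM in control and at 11.1 and 9.84 CPM in Lhx2 cKO, a rise of 1.53 on the log2 scale (SE 0.211, adjusted p = 4.26e-07 in edgeR). Eda2r (2.61) and Ccng1 (0.75) rose as well, where Eda2r had only 10 and 26 counts in control and was at 3.43 without control 2 and 2.09 without control 1. The 1 fall was Trp53bp1 (-0.35), which shares 1873 exon bases with Tubgcp4 on the other strand and was not called without Lhx2 cKO 2 (adjusted p = 0.117). Microglia markers (9 of 10 called higher, with sums of 123 and 127 CPM in control against 259 and 286 CPM in Lhx2 cKO) and markers of oligodendrocyte precursors and astrocytes (8 of 9 called higher, with sums of 53.2 and 60.5 CPM against 123 and 128 CPM) were higher in the same libraries. Their part in these rises was not tested.

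The 5 genes whose pattern over the 4 libraries was most like the median of the members were Zfp868, Fam210b, Mfap2, Srebf1 and Fzd2. Likeness was the Euclidean distance between log2 CPM values centred on each gene's mean. The 9458 genes compared had a mean level of at least 10 CPM, and the members and genes with provisional names were left out. The distances of the 5 ran from 0.0742 to 0.0819. Zfp868, for example, was at 48.5 and 47.5 CPM in control and at 31.9 and 36.1 CPM in Lhx2 cKO. None of the 5 is in a list used here, and with 4 libraries many genes share a pattern of this kind.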

How the data were processed

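Counts per gene were deposited by the authors as whole numbers, 1 column per library. Trim Galore, Subread, featureCounts, edgeR and build mm39 are named in the submitters' processing notes, without versions or roles, and the annotation and use of strand are not given in the sources used here. The deposited log2 fold change, log2 CPM, p-value, adjusted p-value and its -log10 are the authors'; gene length in bases is also theirs. The table's genes need not be all genes that the authors counted, and CPM is over the analysed genes only.

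Counts were fitted with edgeR 4.0.16 in R 4.3.3: TMM scaling (factors 0.973 to 1.02), filterByExpr with a minimum of 10 counts (1 gene removed), the quasi-likelihood test of Lhx2 cKO against control without covariates, two-sided, Benjamini-Hochberg over 13288 genes. SE is the absolute log2 fold change over the square root of F, and 95% intervals use the fit's degrees of freedom. Counts of the 2 libraries of each group were not alike within counting noise (chi-square of 13.9 and 14.3 per degree of freedom), so no pair was treated as 1 library deposited in duplicate. The script was tested on simulated data. Alternatives were other scalings and filters, DESeq2 1.42.0, limma-voom (limma 3.58.1), a replicate block, an adjusted p under 0.01 and each library left out. The members, lists and rules were chosen with earlier results of these data known. The genes named are Lhx2, the members, in each list at most 3 called genes, those of smallest p, and the 5 genes nearest in pattern; Slc1a3, Trp53bp1 and the tissue markers were chosen after their values were seen.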

Additional observations from a re-analysis of the deposited data

How the results depend on the processing

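With all libraries, Lhx2 and each of the 10 members kept their direction and their side of the threshold under RLE, upper-quartile and library-total scaling, no filter, a mean count of at least 50 and limma-voom. Stil was the 1 member that lost its call, in DESeq2 and at an adjusted p under 0.01. At that threshold 1697 genes were called and Lhx2 (-0.31, adjusted p = 0.0191) was not, by construction. Replicate numbers share only a number (correlation of the replicate deviations between groups 0.001 across genes). The replicate block gave 2874 called genes against 2758 and changed no member's call, with 5 called lower. Leaving out 1 library leaves a lone sample that is assumed to vary like the other group. In those fits the called genes ranged from 1633 to 2396, the members called lower from 3 to 5, the median log2 fold change of the members from -0.578 to -0.374 and the log2 fold change of Lhx2 from -0.38 to -0.25. The fewest calls came without Lhx2 cKO 2, and 1790 came without control 1. No member changed direction in any fit, though groups that do not overlap can hardly reverse when 1 library is left out. The counts of 49 to 189 per library for Stil and Mcph1 limit the precision of their values. Knl1 had 62 and 105 counts in the Lhx2 cKO libraries, which limits its precision too.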
